A study of Mus musculus with 64 samples.

Results

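The cytosolic ribosomal protein genes of the proximal colon were taken by name, as every gene symbol that starts with Rpl or Rps and a digit, leaving out the Rps6k kinases and symbols that end in -ps and digits. This gave 65 of the 19503 genes on the array, of which 31 encode proteins of the large subunit, 21 encode proteins of the small subunit and 11 are paralogs or retrogenes. The other 2, Rps19bp1 and Rps23rg1, match the name rule but were placed in none of these classes, so the 11 leave out Rps23rg1. The name rule uses no measured value, but it was chosen with earlier results of these data known. RefSeq lists 85 protein-coding genes under the same rule, and 21 of them, among them Rpl10, Rpl13a and Rps3, have no probeset with their symbol and were not analysed here. One member, Rps4l, is a transcribed pseudogene in RefSeq.

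Ribosomal proteins are the protein part of the cytosolic ribosome, which carries out translation. The small subunit decodes the mRNA, and the large subunit joins amino acids and passes the nascent chain through its exit tunnel. Most are needed in equal numbers in each ribosome, and the translation of their mRNAs, which carry a pyrimidine tract at the 5′ end, responds to nutrients through the kinase complex mTORC1. The intestinal epithelium renews itself quickly and makes much protein, so ribosomal protein mRNAs are abundant there.

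Colon RNA came from male mice of 32 strain labels, with 1 array for each label on each diet. Of the labels, 30 are BXD strains and 2 are their parents, C57BL/6J and DBA/2J. The high-fat diet (HFD) group of 32 arrays received 60.3% of calories as fat, 21.4% as carbohydrate and 18.3% as protein, and the chow diet (CD) group of 32 arrays received 18% as fat, 58% as carbohydrate and 24% as protein by the protocol. A second label field gives another protein share for CD. All mice were put on their diet at 8 weeks of age, stayed on it for 21 weeks and were killed at 29 weeks, fasted over the day and then refed their own diet for 4 h. BXD strains are inbred mosaics of those parents' genomes. Each array carried RNA pooled evenly from about 5 mice, so no error or p-value below measures the spread between mice. In the diet fit without a block they rest on the spread between strain pools. With strain as a block, and in the strain F test, they rest on the remainder within strains once the diet difference is fitted. The tissue is bulk, so fewer cells of a type and less RNA per cell cannot be told apart.

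Some arrays were in doubt. On the 300 genes whose level followed the strain best among the other strains, the HFD array lay closest to the CD array of its own label for 24 of 32 strains and closer to another for 8. For DBA/2J its own CD array ranked number 23 (r = -0.13), for BXD89 number 11, with the BXD90 CD array closest (r = 0.54), and for BXD90 number 8. The C57BL/6J HFD array lay closest to the DBA/2J CD array (r = 0.73), and BXD87 had r = 0.26 with its own label and 0.28 with BXD69. These 5 labels were the ones set aside as doubtful, from earlier results of these data. The other 3 strains closer to another label were BXD40 (r = 0.24 with its own label and 0.60 with BXD73), BXD6 (0.35 and 0.50 with BXD11) and BXD81 (0.38 and 0.41 with DBA/2J), and results without all 8 are given as well. BXD81 CD and BXD49 HFD stood apart from the arrays of their diet, and the Paneth cell gene Defa24 exceeded 12 (log2) in BXD39, BXD49 and BXD69 on HFD and in BXD48a on CD. Results are given without these arrays where they change. The defining markers of colonocytes (Car1) and goblet cells (Muc2) averaged 19.81 and 19.92 on HFD, against 19.87 and 19.92 on CD, near the highest value of the table (19.93).

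Promoter stretches are shown for some of the members that the results below turn on, to set their start regions side by side. Others, among them Rpl7 and Rps20, are not shown. Each runs from 80 bases before the RefSeq start to 20 bases after it (GRCm38.p6, 5′ to 3′, the first start listed), so that the start is base 81. Capitals mark every run of 7 or more C or T. Rpl5 and, with strain fitted as a block, Rps15a and Rps4x were higher on HFD, Rpl22 and Rps25 followed the other members most closely, Rps6 and Rpl4 were among the 5 members that varied least, and Rps19bp1 differed most between strains.
Rpl5 (chr5:107900448-107900547, + strand): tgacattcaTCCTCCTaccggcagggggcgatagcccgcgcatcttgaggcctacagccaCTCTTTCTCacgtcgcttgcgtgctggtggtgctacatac
Rps15a (chr7:118116128-118116227, - strand): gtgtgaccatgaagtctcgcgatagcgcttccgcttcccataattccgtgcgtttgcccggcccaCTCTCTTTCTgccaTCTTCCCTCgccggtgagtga
Rps4x (chrX:102189372-102189471, - strand): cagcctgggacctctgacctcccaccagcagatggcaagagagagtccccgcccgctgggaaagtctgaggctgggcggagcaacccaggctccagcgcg
Rpl22 (chr4:152325646-152325745, + strand): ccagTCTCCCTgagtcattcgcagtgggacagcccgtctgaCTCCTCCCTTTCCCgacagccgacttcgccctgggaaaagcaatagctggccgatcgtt
Rps25 (chr9:44407634-44407733, + strand): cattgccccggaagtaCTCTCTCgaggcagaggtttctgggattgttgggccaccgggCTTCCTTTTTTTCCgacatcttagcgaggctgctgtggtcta
Rps6 (chr4:86857348-86857447, - strand): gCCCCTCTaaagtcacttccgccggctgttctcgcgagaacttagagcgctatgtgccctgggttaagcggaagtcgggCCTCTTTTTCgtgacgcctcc
Rpl4 (chr9:64173307-64173406, + strand): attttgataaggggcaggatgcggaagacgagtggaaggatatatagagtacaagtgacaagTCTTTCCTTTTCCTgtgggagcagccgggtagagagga
Rps19bp1 (chr15:80264287-80264386, - strand): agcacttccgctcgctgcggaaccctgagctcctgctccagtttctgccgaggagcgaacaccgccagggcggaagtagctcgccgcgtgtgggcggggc
The table of promoters held 53 of the 65 members and 15689 genes of the array. A run of 7 or more C or T within 20 bases of a start was present in 31 of the 53 members (58.5%) and in 33.2% of the 15689 genes, counting a gene when any of its listed starts had one. A run of A or G of that length was present in 12 members (22.6%) and in 35.4% of the genes. On either strand of the 300 bases, CCGGAAG was found in 20 members (37.7%) and 13.2% of genes, GGGCGG in 29 members (54.7%) and 51.2% of genes, and TATAAA in 6 members (11.3%) and 14.6% of genes. Of the stretches printed, those of Rps4x and Rps19bp1 have no marked run. Of members not printed, Rps3a1 and Rps19 had no such run in the same stretch, and Rps21 had a run. These are matches of letters and were not set against the expression values.

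On HFD, 2 members rose and none fell (3.08% of members in either direction, where 2.18% of all genes changed). Both are large subunit genes, Rpl5, whose protein carries the 5S RNA and binds Mdm2 when ribosome assembly is disturbed, and Rpl7. The 2 are 3.08% of the members, where 0.743% of all 19503 genes rose (145) and 1.44% fell (281) at an adjusted p of 0.05 in limma, with Benjamini-Hochberg adjustment over all genes. Most members lay slightly above CD, and 60 of 65 had a higher mean on HFD, against 50.7% of all genes. In 44 of the 65 members HFD was higher in at least 20 of the 32 strains, as in 17.2% of all genes. The median change was 0.12 on the log2 scale (all genes 0.00), and it ran from -0.23 for Rpl3l to 0.36 for Rpl7. At an unadjusted p of 0.05, 24 members were higher (6.51% of all genes were) and 1 was lower, Rpl3l (7.05% of all genes were). Members share the same arrays and their levels were correlated (median r 0.41), so these are not counts of independent genes.

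Rpl5 read 16.73 to 17.81 log2 units on HFD (median 17.40), against 16.51 to 17.77 on CD (median 17.11). The groups overlapped over most of their range. The mean was 17.35 ± 0.293 on HFD and 17.08 ± 0.285 on CD (SD, n = 32 each), a difference of 0.27 (SE 0.075, 95% interval 0.12 to 0.42), or 1.20-fold, with a limma adjusted p of 0.0395. The HFD array was the higher one in 26 of 32 strains.

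Rpl7 read 16.62 to 18.55 on HFD (median 17.81), against 16.67 to 17.90 on CD (median 17.44). Its lowest arrays were as low on both diets and its highest HFD arrays lay above every CD array. The difference was 0.36 (SE 0.105, interval 0.15 to 0.57), or 1.29-fold, with a limma adjusted p of 0.0447, and HFD was higher in 24 of 32 strains. Centring each array on its median left neither gene below 0.05 (adjusted p 0.0684 for both).

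With strain as a block, 5 members were higher on HFD (7.69%, where 1.39% of all genes were) and none was lower (2.13% of all genes were). The added members were Rps20, which in human cells is ubiquitylated on collided ribosomes, Rps4x, the X-linked S4 gene, and Rps15a, all of the small subunit. Rps20 read 13.81 to 15.88 on HFD (median 14.75), against 13.64 to 15.02 on CD (median 14.41), a difference of 0.33 (SE 0.104) with an adjusted p of 0.0697 without the block and 0.0338 with it in limma. Rps4x read 13.58 to 15.34 on HFD (median 14.65), against 13.50 to 15.11 on CD (median 14.24), a difference of 0.34 (SE 0.111, adjusted p 0.0896 without the block and 0.0338 with it in limma). Rps15a read 13.45 to 15.06 on HFD (median 14.12), against 13.23 to 14.59 on CD (median 13.88), a difference of 0.30 (SE 0.095, adjusted p 0.083 without the block and 0.0287 with it in limma). All 3 overlapped between diets, and HFD was higher in 24, 25 and 23 of 32 strains. Leaving out the 5 strains with doubtful labels gave 8 members higher on HFD without the block (330 of all genes) and 14 with it (590). Leaving out DBA/2J alone gave 4 (195 of all genes). Leaving out all 8 strains that were closer to another label gave 6 without the block (266 of all genes) and 18 with it (495). These strains were left out for unlike arrays on the 2 diets, which can lower the remainder that the block fit uses. Their mean HFD minus CD over the 65 members was -0.56 in BXD81, -0.34 in BXD90, -0.29 in DBA/2J and -0.07 in BXD89. It was 0.56 in BXD6, 0.19 in C57BL/6J, 0.17 in BXD87 and 0.10 in BXD40.

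**Figure D1:**
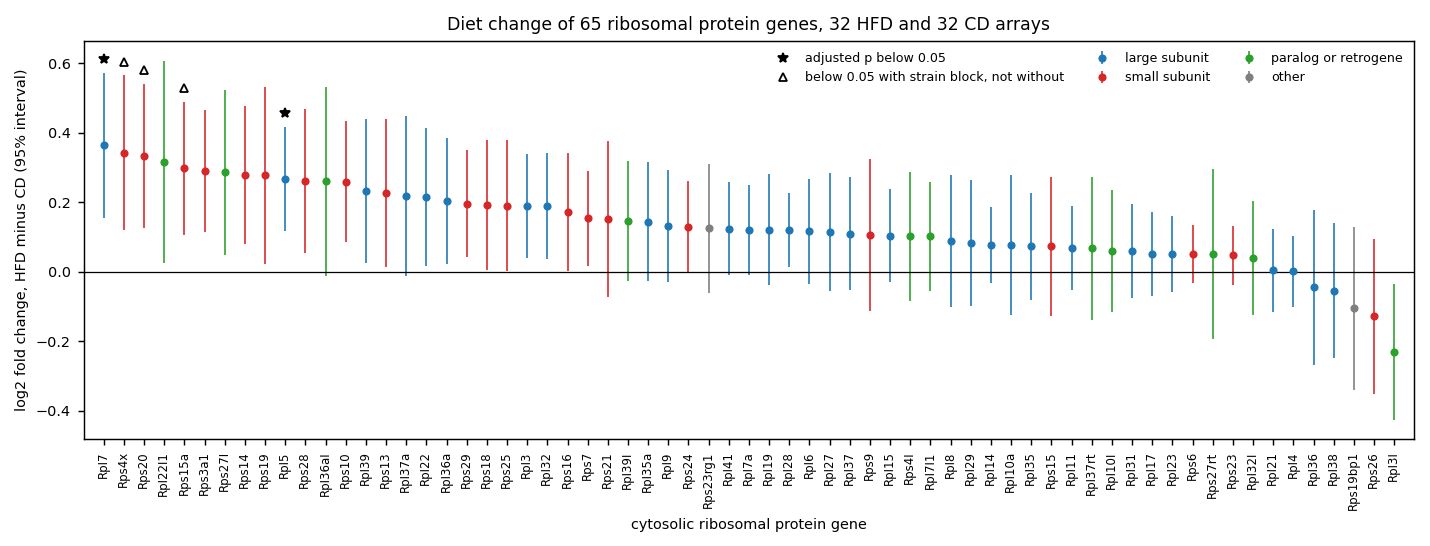
Log2 fold change of each of the 65 genes, HFD minus CD, in order of size (points, with 95% intervals; colours give the subunit or class), over 32 HFD and 32 CD arrays. Stars mark Rpl7 and Rpl5 and open triangles the 3 further members below 0.05 in the fit with strain as a block of all 64 arrays; 60 of the 65 points lie above 0.

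**Figure D2:**
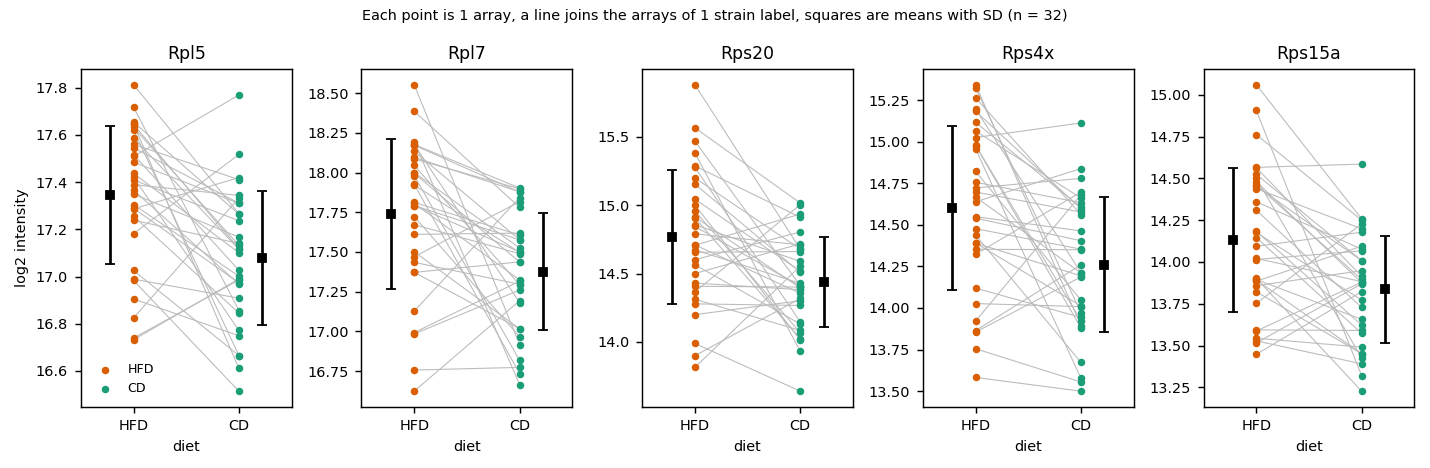
Log2 intensity of the 5 members in every array, HFD left and CD right, with lines joining the arrays of 1 strain label and squares giving the mean and SD of 32 arrays. The 2 diets overlap for each gene while the HFD mean lies higher, by 0.27 for Rpl5 and 0.36 for Rpl7.

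Members with a known function are given next, and differences between members were not tested. Of the partners in the 5S particle, Rpl11 differed by 0.07 (interval -0.05 to 0.19, adjusted p 0.68 in limma) and Rpl5 by 0.27 (interval 0.12 to 0.42). Rps6, the substrate of the S6 kinases downstream of mTORC1, read 17.86 to 18.38 on HFD (median 18.09), against 17.79 to 18.34 on CD (median 18.08), a difference of 0.05 with an interval of -0.03 to 0.13. Rpl4, which lines the exit tunnel, differed by 0.00 (interval -0.10 to 0.10). The 6 members at the exit tunnel and its rim had a median change of 0.07, and none passed the test. At the mRNA exit Rps14 differed by 0.28, Rps28 by 0.26 and Rps26 by -0.13 (adjusted p 0.135, 0.2 and 0.682 in limma). The small subunit as a whole had a median of 0.19 with 20 of 21 members above 0, and the large subunit had 0.11 with 29 of 31 above 0. The difference between the subunits was not tested. Their mean levels on HFD were 15.41 and 16.03 in that order. The 18 members above 17 log2 units had a median change of 0.11 and a median SD of 0.25 over arrays. The 31 members at 13 to 17 had 0.19 and 0.39, and the 16 below 13 had 0.11 and 0.39. The part of signal level in the changes and SDs of members was not tested.

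Among paralogs and retrogenes, 10 of 11 lay above 0 (median 0.10) and none passed the test. Rpl22l1, the paralog of Rpl22, varied most of all members (SD 0.617) and read 10.49 to 13.33 on HFD (median 12.001), against 10.82 to 12.52 on CD (median 11.70). Its difference of 0.31 had an interval of 0.02 to 0.61 and an adjusted p of 0.308 in limma. Rps27l, a p53 target, differed by 0.29 (adjusted p 0.235 in limma). Rpl3l, which is known for striated muscle, read 3.77 to 5.53 on HFD (median 4.76), against 3.92 to 5.91 on CD (median 5.01), low on both diets, with a difference of -0.23 and an adjusted p of 0.252 in limma. Rps23 and Rpl28 averaged 19.37 and 19.41 on HFD, against 19.33 and 19.29 on CD, near the highest value of the table, and Rps6 (0.118), Rps23 (0.122) and Rpl4 (0.166) had the smallest SD of all members over the 64 arrays.

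The mean over all 65 members was 14.52 ± 0.245 on HFD and 14.38 ± 0.188 on CD (SD, n = 32 each), a mean difference of 0.13 ± 0.283 over strains, or 1.10-fold, and it was higher on HFD in 24 of 32 strains. BXD62 had 14.93 on HFD and 14.12 on CD, and BXD34 had 14.99 on HFD and 14.36 on CD, with 60 and 59 of 65 members higher on HFD. In BXD81 it was 14.22 on HFD and 14.78 on CD, and in BXD90 it was 14.15 on HFD and 14.49 on CD. BXD81 CD, 1 of the arrays that stood apart, was the highest CD array, and the label of BXD90 is in doubt. The HFD mean of a strain correlated weakly with its CD mean (r = 0.17 over 32 strains, 0.096 without the 2 strains farthest from the median). With 1 array per strain and diet, the response of a strain cannot be told apart from the spread between arrays.

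**Figure D3:**
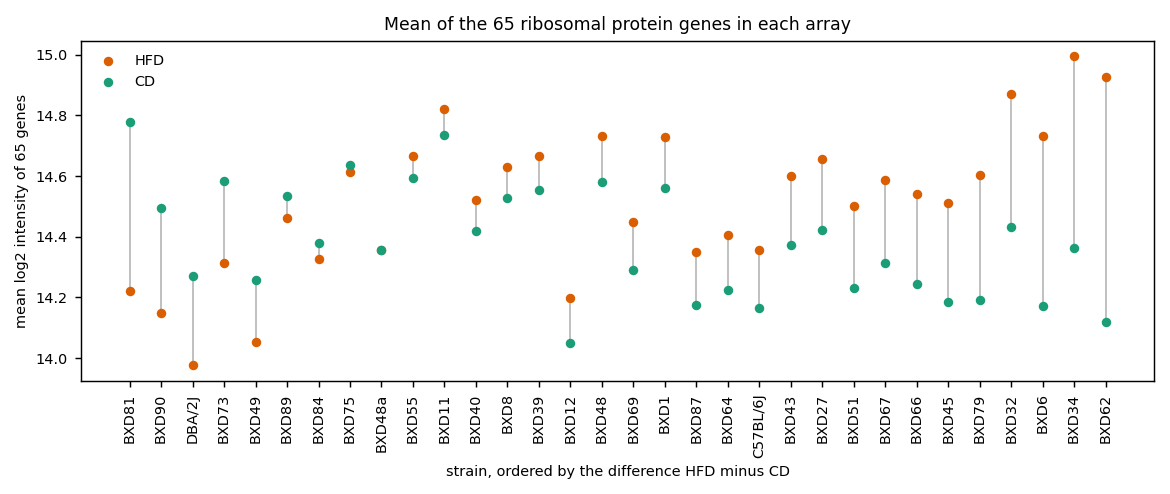
Mean log2 intensity of the 65 genes in the HFD (orange) and CD (green) array of each strain, in order of the difference from BXD81 (-0.56) at the left to BXD62 (0.81) at the right. The HFD point lies above the CD point in 24 of 32 strains.

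The members' levels were correlated from array to array. After the diet means were removed, the median correlation over the 2080 pairs of members was 0.41, with 1860 pairs above 0 and 36.9% above 0.5. Over all 190173753 pairs of genes the median was -0.002 and 0.296% were above 0.5, and among the 3089 genes whose mean level was at or above the 10th percentile of the members it was 0.038, with 2.61% above 0.5. The median within other lists was 0.47 for oxidative phosphorylation, 0.47 for the proteasome, 0.51 for fibroblast markers and 0.62 for smooth muscle markers, each above that of the members, and 0.31 for mitochondrial ribosomal proteins. These correlations share arrays and strains, so they are a description with no p. Within the small subunit the median was 0.53, within the large subunit 0.41 and between the subunits 0.47. Within the paralogs and retrogenes it was 0.18, and between them and the 52 subunit genes 0.31. On HFD arrays alone the median was 0.44 and on CD arrays alone 0.37.

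Rpl22, an RNA-binding protein of the large subunit, followed the others most closely (median r 0.63), then Rps25, Rps19, which is mutated in human Diamond-Blackfan anaemia, Rps21 and Rpl9. The closest pairs were Rpl7 with Rps3a1 (r = 0.88), Rpl22l1 with Rpl37a (0.88) and Rpl37 with the retrogene Rpl37rt (0.87), which may share probe sequence. Rpl29, Rps23rg1, Rps4l, Rpl3l and Rpl39l had median correlations from -0.02 to 0.07. Rpl29 (-0.02) and Rpl4 (0.07) were thus the subunit genes least like the rest, and the lowest pair was Rps9 with Rps23rg1 (-0.32).

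A small group of 4 members, Rpl10a, Rps26, Rpl38 and Rps15, was seen in the ordered matrix and was chosen after its values were seen. Rpl38 is known for its part in translating Hox mRNAs in mouse embryos, and Rps15 lies near the decoding site. Their 6 pairs correlated at 0.58 to 0.82, at 0.51 to 0.85 on HFD arrays and 0.65 to 0.81 on CD arrays, while their 244 pairs with the other 61 members had a median of 0.16, against 0.45 among those 61. Rpl36 and Rps27rt were closest to them (mean r 0.61 and 0.58), and Rpl7 and Rpl10l were farthest (-0.18 and -0.22). On HFD they differed from CD by 0.08, -0.13, -0.05 and 0.07 in the order given, with limma adjusted p of 0.682 to 0.874.

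**Figure D4:**
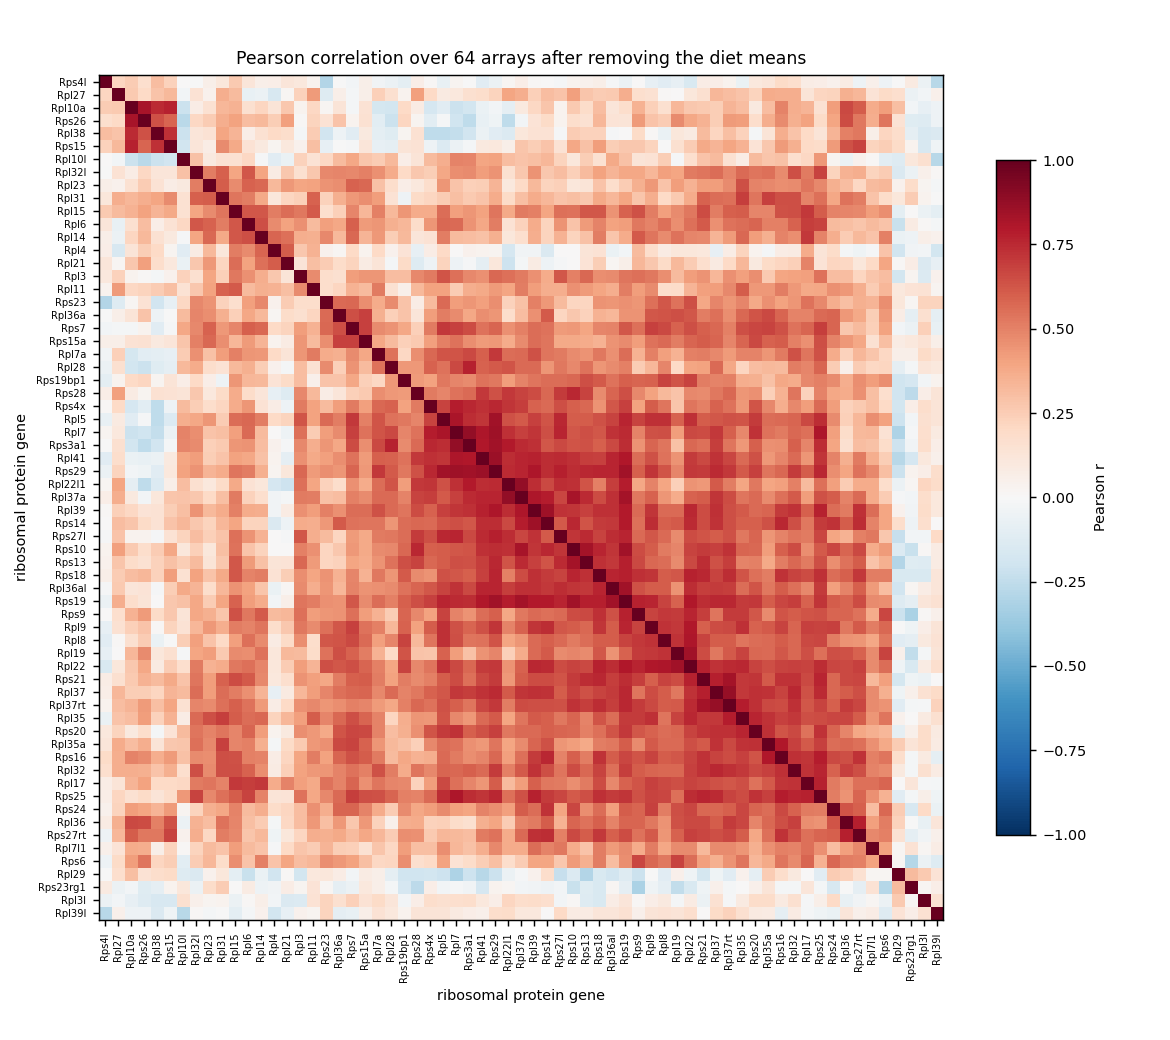
Pearson correlation of every pair of the 65 genes over 64 arrays after removing the diet means, ordered by average linkage (red above 0, blue below 0). The broad red field holds most subunit genes, the small red square at the upper left is Rpl10a, Rps26, Rpl38 and Rps15, and Rpl29, Rps23rg1, Rpl3l and Rpl39l at the lower right are pale or blue.

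Other gene lists were set beside the member mean over the same 64 arrays, each as the mean of its genes. Oxidative phosphorylation (72 genes) correlated with it at 0.87, the acidic stalk and other ribosomal proteins outside the name rule (4 genes) at 0.88, mitochondrial ribosomal proteins (76) at 0.80, initiation factors (32) at 0.78 and the proteasome (30) at 0.76. Ribosome biogenesis (45) stood at 0.53, elongation factors (10) at 0.41, cell cycle (28) at 0.11 and mTORC1 signalling with RNA binding of TOP mRNAs (18) at -0.32. The median of all genes in an array correlated with the member mean at -0.57, and its part in these values was not tested. With arrays centred on their median, the median pair correlation of the members was 0.46.

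Counts of changed genes were taken for these lists in the same limma fit. In the cell cycle list 9 of 28 genes rose and none fell (median 0.30), with Top2a, a DNA topoisomerase, higher by 0.55 (adjusted p 0.00571 in limma) and Plk1, a mitotic kinase, by 0.48 (0.00736). In mTORC1 signalling 1 of 18 rose, Sesn1, a stress-induced inhibitor of mTORC1, by 0.43 (adjusted p 0.003 in limma). In oxidative phosphorylation 1 of 72 rose, Ndufa4, by 0.37 (adjusted p 0.0248 in limma). None passed among 76 mitochondrial ribosomal proteins (median -0.002), 32 initiation factors, 10 elongation factors, 45 ribosome biogenesis genes, 30 proteasome subunits, 16 factors of ribosome quality control and nascent chains (r = 0.62 with the member mean) and the 4 other ribosomal proteins. Their smallest adjusted p values were those of Npm1 (0.0515) and Naca (0.0756), where 0.743% of all genes rose and 1.44% fell in limma. With strain as a block, where 1.39% of all genes rose, 15 cell cycle genes rose, as did Eif2b3 among the initiation factors, the nucleolar proteins Npm1 and Ncl in ribosome biogenesis, and Naca among the nascent chain factors.

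Single genes in some lists of cell type markers changed with diet, where 0.743% of all genes rose and 1.44% fell. In the colonocyte list 1 of 10 genes fell, the phosphate transporter Slc20a1, and all 10 had a lower mean on HFD, with list means of 15.73 to 16.57 on HFD and 15.70 to 16.95 on CD. In the Paneth and small intestine list 1 of 15 rose, Fabp6, with list means of 8.05 to 15.91 on HFD and 7.75 to 14.22 on CD. The smooth muscle list had all 10 genes above 0 and none past the test, with list means of 12.73 to 14.26 on HFD and 12.86 to 14.34 on CD. In the goblet cell list 1 of 8 fell, the transcription factor Spdef, and in the adipocyte list 1 of 5 rose, the fatty acid binding protein Fabp4. The correlations of the colonocyte, Paneth and smooth muscle lists with the member mean were 0.06, -0.14 and -0.25, and those of the other cell type lists lay between -0.16 and 0.23. The part of these cells in the diet change was not tested. None of the B cell, T cell, myeloid, fibroblast, stem cell and neuron lists had a gene past the test, and the block changed calls in 3 lists. With it 1.39% of all genes rose and 2.13% fell. In these lists 2 fibroblast genes rose with the block (Lum and Col1a1) and 2 colonocyte genes fell (Slc20a1 and Car4). In the Paneth and small intestine list 4 genes rose with it, among them Fabp6, Mmp7 and Enpep.

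Strain differences were found for 2 members, while the HFD and CD arrays correlated above 0 over strains in 53 of 65 members (74.2% of all genes). Of these 2, Rps19bp1 matches by name only and does not encode a protein of a ribosome subunit. Rpl22 and Rps19bp1, whose protein binds Rps19 and the deacetylase Sirt1, passed the limma F test of strain with adjusted p of 0.0171 and 0.0164, 3.08% of the members, where 6.38% of all genes passed. Both calls depended on the arrays kept. Without the 5 strains of doubtful label Rpl22 had an adjusted p of 0.0601 in limma. Rps19bp1 still passed there, as did 1230 of all genes. Without the 4 arrays rich in Defa24 both were lost (limma adjusted p 0.0789 for Rpl22 and 0.0612 for Rps19bp1). Over all genes 762 then passed, against 1245 with all arrays. Without all 8 strains closer to another label 4 members passed (1393 of all 19503 genes did), Rpl22, Rps19bp1, Rps27l and Rpl37a. But those strains were left out for unlike arrays on the 2 diets, which this test also measures.

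Rpl22 read 15.84 to 17.29 on HFD (median 16.55) and 15.66 to 16.96 on CD (median 16.37). BXD11 had 17.29 on HFD and 16.96 on CD, and BXD39 had 17.18 on HFD and 16.91 on CD, the highest strain means. DBA/2J had 15.84 on HFD and 15.91 on CD, and BXD12 had 15.93 on HFD and 15.95 on CD, the lowest. Over the 32 strains the HFD and CD arrays correlated at 0.58 (rho 0.58, 0.56 without the 2 strains farthest from the median). Its strain means were most like those of Mapk1ip1l (r = -0.91), Naca, a chaperone of nascent chains (0.89), and H3f3a (0.88), over 32 strains.

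Rps19bp1 read 7.37 to 9.20 on HFD (median 8.08) and 7.12 to 9.49 on CD (median 8.13). BXD1 had 9.20 on HFD and 9.16 on CD, and BXD11 had 8.78 on HFD and 9.49 on CD, while BXD49 had 7.61 on HFD and 7.60 on CD. The HFD and CD arrays correlated at 0.52 over strains (rho 0.47, 0.47 without the 2 farthest). The genes most like it over strain means were Gm20854 (r = -0.84), Gm7697 (-0.82) and Polr1d, a subunit of RNA polymerases I and III (0.82). Rps27l (0.0554), Rps9 (0.0621), Rpl8 (0.0649) and Rpl19 (0.0734) followed with limma adjusted p above the threshold.

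**Figure D5:**
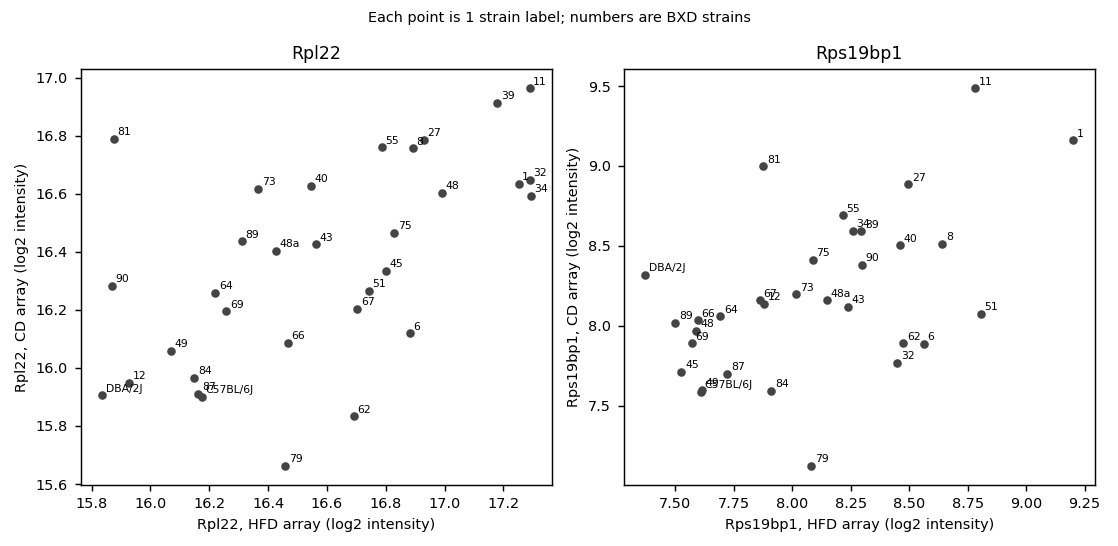
Log2 intensity of Rpl22 (left) and Rps19bp1 (right) in the HFD array (x axis) against the CD array (y axis) of each of 32 strains, numbers being BXD strains. The points rise together (r = 0.58 and 0.52), with BXD11 at the upper right of both and DBA/2J at the lower left for Rpl22.

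Correlations of paralogs with their parent gene were tested for 6 listed pairs with both genes on the array. Rpl37rt with Rpl37 (r = 0.87) and Rpl32l with Rpl32 (r = 0.64) were not among the 6 and were not tested. Both values lay above those of the 6. Rpl22 with Rpl22l1 correlated at 0.45 over 64 arrays (rho 0.47, permutation p 0.00017 and 0.0001, adjusted over the 6 pairs 0.00102 and 0.0006, two-sided), and at 0.47 without the 2 arrays farthest from the median. Within diets it was 0.56 on HFD and 0.27 on CD. Rpl36a with Rpl36al gave 0.33 (rho 0.35, permutation p 0.00722 and 0.00464, adjusted 0.0144 and 0.0139), 0.40 without 2 arrays, 0.36 on HFD and 0.29 on CD. Rpl7 with Rpl7l1, a biogenesis factor, gave 0.33 (rho 0.26, permutation p 0.00707 and 0.042, adjusted 0.0144 and 0.0841), 0.26 without 2 arrays, 0.45 on HFD and 0.17 on CD. Rpl39 with Rpl39l, Rpl3 with Rpl3l and Rps4x with Rps4l gave 0.11, -0.14 and 0.01 (adjusted permutation p 0.471, 0.417 and 0.946). The paralogs of these 3 pairs had mean levels of 6.01, 4.73 and 6.16 on HFD and 5.87, 4.96 and 6.06 on CD, below the median of all gene means (6.68), and low signal limits what these correlations can show. The differences between diets were not tested. The 2 arrays of a strain are not wholly independent, which these permutations do not allow for. The permutations test against no correlation at all, while members in general correlated with each other. The median r of the parent with the other members was 0.63 for Rpl22, 0.38 for Rpl36a and 0.54 for Rpl7. Each lay above that gene's r with its paralog. Whether a paralog follows its parent more closely than other members do was not tested.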

How the data were processed

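The deposited values are log2 intensities of Clariom S arrays that the authors made with Affymetrix Power Tools (gc-sst-rma-sketch), already normalised; the genome build is not given in the sources used here, and whether the authors' masking of polymorphic probes is in the deposited values is not stated. Of 22199 probesets, 19570 carried 1 gene symbol and 2629 carried none and were left out; for 55 genes the median over probesets was taken. No filter on low values was used. HFD minus CD was tested with limma 3.58.1 (lmFit, eBayes) in R 4.3.3, Benjamini-Hochberg over 19503 genes at 0.05, with strain as a block as an alternative. Arrays of 1 strain label come from 1 inbred strain; their deviations correlated by over 0.1 in 22 of 32 pairs (median 0.21, against -0.01 between strains). Strain was tested by the moderated F test in a fit of diet plus strain. Correlations used values with the diet means removed, and paralog pairs a permutation test of 100000 resamples (numpy 2.4.6, scipy 1.17.1). The label check correlated arrays over 300 genes chosen without the strain under check.

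The members and lists were chosen with earlier results of these data known. Named members were those with the smallest diet (10) and strain (8) p, the 5 highest and 5 lowest in median correlation and in SD, the paralogs and any member past the threshold; of other lists, the 3 genes with the smallest p. Members outside this rule were named for their function or position, after their values were seen. Promoters are RefSeq's (GRCm38.p6). On simulated data of 19503 genes, limma called 85 of 100 genes changed by 0.5, 15 of 100 changed by 0.25 and 4 of 19303 unchanged genes for HFD minus CD. The number of arrays and the spread between strains limit precision. Of the lists, the small nucleolar RNA host list had 0 of 8 genes on the array.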

Additional observations from a re-analysis of the deposited data

How the results depend on the processing

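The number of members called higher on HFD (2) moved with the setting. It was 5 with strain as a replicate block, 0 with arrays centred on their median, 6 with quantile normalisation, 4 among the upper 60% of genes, 4 in the 30 BXD strains alone, 8 without the 5 strains of doubtful label, 6 without the arrays that stand apart and 4 without the arrays rich in Defa24. Alternatives chosen after seeing the data gave 14 with the replicate block and without the doubtful strains, and 4 without DBA/2J. Without the 8 strains closer to another label there were 6 (18 with the replicate block). These 8, which include the 5 of doubtful label, had unlike arrays on the 2 diets, so leaving them out can lower the remainder of the block fit. The number of members with a strain difference (2) was 6 among the upper 60% of genes and 6 with a variance trend. It was 4 without those 8 strains and 0 without the arrays rich in Defa24. Over all genes the strain count was 1245 of 19503 in the main fit. In the same order as the members it was 1587 of 11702, then 1512, 1393 and 762 of 19503. The cause of these moves was not tested. No member was lower on HFD under any alternative run, and the median change (0.11 to 0.18) and the median correlation of members (0.32 to 0.46) stayed above 0. The counts over all genes were 145 higher and 281 lower on HFD in the fit of all arrays without the block. They were 330 and 527 without the doubtful strains, 271 and 416 with the replicate block, and 590 and 768 with both. Without the 8 strains they were 266 and 453 (495 and 700 with the block). With arrays centred they were 112 and 310, with quantile normalisation 181 and 243, and in the BXD strains 200 and 342. Among the 11702 upper genes, 63 of them members, they were 200 and 360. Without the arrays that stand apart they were 152 and 250, without those rich in Defa24 157 and 249, and without DBA/2J 195 and 308. Rpl4, with a change of 0.00, turned to -0.011 with arrays centred, -0.00023 in the BXD strains, -0.012 without BXD48a, -0.017 without the doubtful strains with and without the replicate block, -0.027 without the arrays rich in Defa24, -0.0030 without DBA/2J and -0.024 without the 8 strains with and without the replicate block. The adjusted p over the alternatives ran from 0.00305 to 0.0684 for Rpl5 and from 0.00174 to 0.0684 for Rpl7.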
